A study of Mus musculus with 3 samples.

Results

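The clustered histone genes were the genes whose symbol starts with Hist1, Hist2, Hist3 or Hist4, and they were chosen by name, not by their values. The metastasis table listed 62 such genes of 19208 and the naive table listed 60 of 17453. By the protein encoded, they comprised 6 H1 linker genes, 15 H2A, 16 H2B, 12 H3 and 13 H4 genes. Of the 62, 50 belonged to the Hist1 cluster, 9 to Hist2, 2 to Hist3 and 1 to Hist4. Across the deposited cells that were used, these genes held 73134 corrected UMIs in the metastasis table, and 14473 in that of the naive brains. A raw UMI (unique molecular identifier) marks 1 captured transcript. Corrected UMIs are counts after adjustment for depth, so they are not observed transcripts.

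The cells were immune-enriched single cells from 8 brains of female C57Bl/6 mice aged 2 to 3 months, pooled after antibody barcoding (hashing) into 1 droplet preparation with 3 libraries. The 4 brains of the metastasis table came from mice that had received E0771 mammary tumour cells into the carotid artery about 2 weeks earlier, and the 4 brains of the naive table came from mice without tumour cells. In each table there were 2 brains that were Cx3cr1+/- and 2 that were Cx3cr1-/-, named here by genotype and number, and no brain carried a pair of intact Cx3cr1 copies. Each brain was represented by 1 hemisphere and by its hashtag label, and the brains were treated as the replicates. In microglia-like cells Cx3cr1 stood at 1363 and 1464 CPM (counts per 1000000 summed corrected UMIs) in Cx3cr1+/- brains against 113.5 and 31.6 CPM in Cx3cr1-/- brains of the metastasis table. The naive table gave 1953 and 1852 against 75.6 and 71.4 CPM.

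The tables held 13455 cells, all with the authors' singlet label. A total of 1138 cell barcodes occurred in both tables with the same raw UMIs, and they were left out of both, which left 8443 and 2736 cells. Median raw UMIs per cell ran from 6181 to 19768 in 7 of the 8 brains and reached 71585 in Cx3cr1-/- brain 1 of the metastasis table, in which 1629 of 2925 cells were of the Krt8-high cluster. That cluster expressed the epithelial keratins Krt8 and Krt18 and had a median of 103002 raw UMIs per cell. A Krt8-high cluster of 136 cells was also present in the naive brains, which had received no tumour cells, so the cluster is called here by its leading genes. All other cluster names rest on marker genes and carry the ending "-like".

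Histones package DNA: H2A, H2B, H3 and H4 form the core of the nucleosome and H1 binds the DNA that enters and leaves it. Most clustered histone genes are replication-dependent, which means that their short mRNAs, made mainly while DNA is copied, end in a stem-loop in place of a poly(A) tail. The transcripts here were captured at their 3′ end through poly(A), so the levels describe captured histone UMIs and not all histone mRNA, and levels of different genes need not be captured alike. Mki67, which encodes a protein of cycling cells, served as the mark of proliferation and was read from corrected UMIs.

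The promoters of 3 members are shown because, in the Krt8-high comparison by Mki67 described further on, Hist1h1b and Hist1h2ae had larger differences than Hist1h1c. Hist1h1b (H1f5) and Hist1h1c (H1f2) both encode linker histones, and Hist1h2ae (H2ac8) encodes an H2A. All are single-gene matches in RefSeq on GRCm38.p6, and the gene bodies span 21779832 to 21780625 (Hist1h1b, minus strand), 23738807 to 23739531 (Hist1h1c, plus strand) and 23570663 to 23571220 (Hist1h2ae, minus strand) of chromosome 13. The first lines give the 250 bases before the transcript start, chr13:21780626-21780875 on the minus strand and chr13:23738557-23738806 on the plus strand. The last line gives the 179 bases between the starts of Hist1h2ae and its divergent neighbour Hist1h2bg, chr13:23571221-23571399, read on the minus strand. Capitals mark the CCAAT box, the TATA box letters TATAAA and the octamer letters ATTTGCAT on either strand.
Hist1h1b: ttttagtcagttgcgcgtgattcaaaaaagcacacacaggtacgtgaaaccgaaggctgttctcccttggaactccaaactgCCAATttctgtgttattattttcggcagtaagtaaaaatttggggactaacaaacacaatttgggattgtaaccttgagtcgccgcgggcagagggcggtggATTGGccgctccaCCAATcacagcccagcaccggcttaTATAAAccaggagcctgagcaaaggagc
Hist1h1c: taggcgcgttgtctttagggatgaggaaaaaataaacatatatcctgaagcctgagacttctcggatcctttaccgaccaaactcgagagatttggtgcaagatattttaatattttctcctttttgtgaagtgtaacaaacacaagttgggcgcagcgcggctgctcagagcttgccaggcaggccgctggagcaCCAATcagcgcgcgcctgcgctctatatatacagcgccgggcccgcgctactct
Hist1h2ae: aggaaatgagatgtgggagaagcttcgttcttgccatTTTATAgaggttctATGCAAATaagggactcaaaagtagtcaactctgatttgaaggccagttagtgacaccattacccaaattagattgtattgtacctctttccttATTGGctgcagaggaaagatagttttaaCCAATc
The Hist1h1b window held CCAAT on both strands and a TATAAA close to the start. Of these exact letters the Hist1h1c window held a CCAAT only, with an unmarked run of alternating T and A letters near its start. The window between Hist1h2ae and Hist1h2bg held all 3 motifs. Its TATAAA and octamer letters were on the strand of Hist1h2bg and lay nearer to the Hist1h2bg start.

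A promoter was listed in RefSeq for 56 of the 62 members, 57 promoters in all. In the 250 bases before the start, on either strand, CCAAT occurred in 80.7% of member promoters and in 33.8% of all 32851 promoters of that length. TATAAA occurred in 47.4% against 12.4%. ATTTGCAT, the octamer bound by POU factors, occurred in 19.3% against 1.6%. By family, CCAAT was present in every H1, H2A and H2B promoter listed, in 80% of the H3 and in 25% of the H4 promoters. The octamer was found in 35.7% of H2A and 40% of H2B promoters and in no H1, H3 or H4 promoter. These letters describe the windows and no binding was measured. Divergent neighbours were not captured alike: the starts of Hist1h2ae and Hist1h2bg lie 180 bases apart, and their levels in Krt8-high cells of the metastasis table were 166.5 and 3.22 CPM.

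A few members held most of the captured histone UMIs. The 8 members with the highest mean level over the 8 brains held 76.9% of all member UMIs in the metastasis table, against 81.2% among naive brains. They were the linker genes Hist1h1c (154.4 CPM), Hist1h1e (67.2 CPM) and Hist1h1b (44.4 CPM), the H2A genes Hist1h2ap (125 CPM), Hist1h2ae (44.8 CPM) and Hist3h2a (23.3 CPM), the H2B gene Hist1h2bc (76.4 CPM) and the H4 gene Hist1h4d (18.4 CPM). At the other end, 14 members had fewer than 100 UMIs in each table. Leaving out a cluster of 7 cells, 29 members reached 10 CPM in at least 1 cluster. Hist1h2ap matched 2 RefSeq genes, H2A copies that could share reads, so its level may belong to either. RefSeq spans had a median of 492 bp, and 15 members spanned more than 600 bp, among them Hist1h2bc at 8282 bp.

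Among the named clusters, which leaves out the cluster of 7 cells, the summed histone level was highest in Krt8-high cells of the metastasis table. Its values were 1456 and 2104 CPM in the Cx3cr1+/- brains and 1432 and 1563 CPM in the Cx3cr1-/- brains, a mean of 1639 ± 315 CPM (SD, n = 4 brains). In the naive table the B-like cluster had the highest mean at 1426 ± 923 CPM, but this rested on Cx3cr1+/- brains with 8 and 9 B-like cells at 2016 and 2401 CPM. The Cx3cr1-/- brain that held 76 B-like cells stood at 519 CPM. Naive Krt8-high cells followed at 1298 ± 270 CPM and naive choroid plexus-like cells at 1193 ± 445 CPM (SD, n = 4 brains), which did not differ beyond their spread.

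Among the immune clusters of the metastasis table the order was much flatter. Monocyte/macrophage-like cells were lowest of the named clusters at 230 ± 27.9 CPM, below T-like cells at 335 ± 58.3 CPM (SD, n = 4 brains). The microglia-like cluster (373 ± 103 CPM), neutrophil-like cluster (384 ± 130 CPM), NK-like cluster (476 ± 152 CPM) and B-like cluster (586 ± 155 CPM) overlapped with their neighbours in that order. Naive microglia-like cells stood at 932 and 785 CPM in Cx3cr1+/- and 808 and 794 CPM in Cx3cr1-/- brains, a narrow spread.

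The composition also differed between clusters. In Krt8-high cells of the metastasis table H2A genes gave 55.1% of the histone UMIs, and Hist1h2ap alone gave 35.1%. In naive microglia-like cells the linker genes gave 62.4%, and Hist1h1c alone gave 47.6%. In naive choroid plexus-like cells, the epithelial cells that make cerebrospinal fluid, H2B genes gave 63.6% and Hist1h2bc alone gave 60.3%. Hist1h2bc also led the neutrophil-like cluster with 38.9% of the histone UMIs and the naive endothelial-like cluster with 29.7%.

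**Figure D1:**
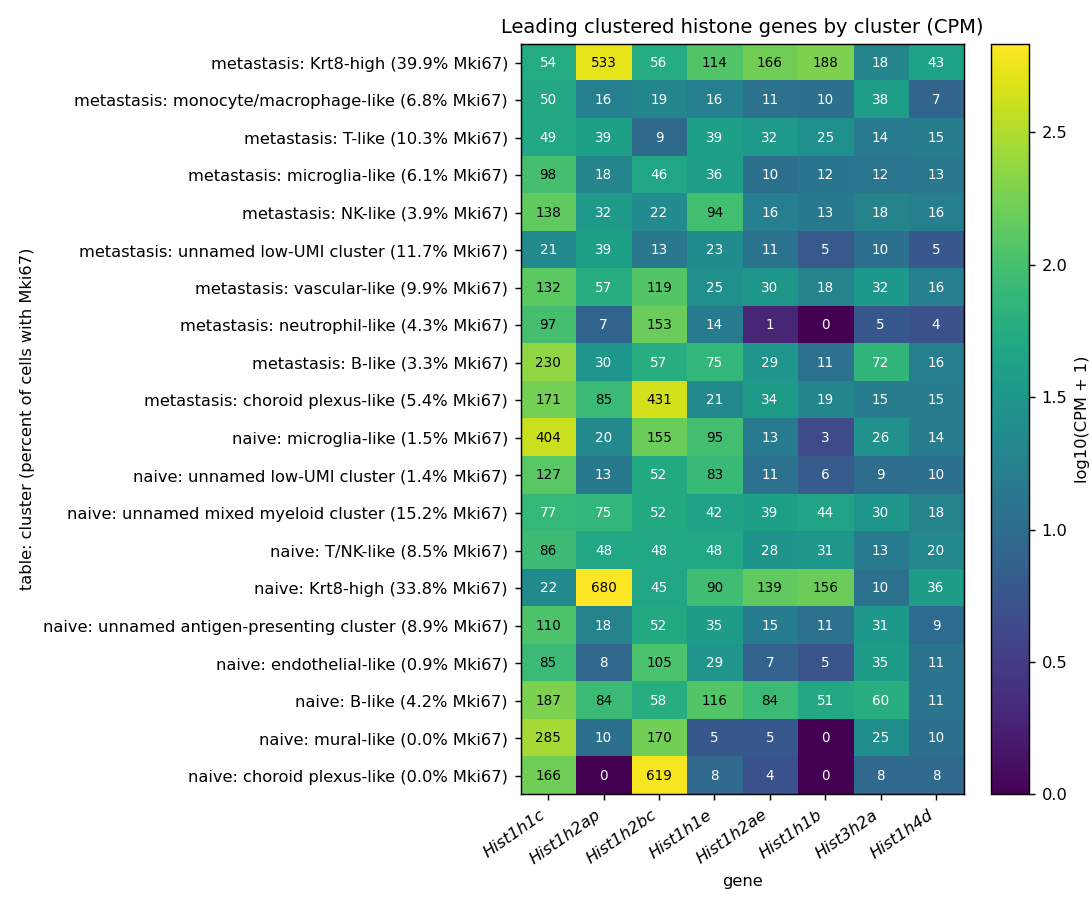
Level of the 8 leading clustered histone genes (columns) in each cluster (rows) of the metastasis and naive tables. Each square gives CPM over the cluster's cells, and the colour is on a log scale. Hist1h2ap peaks in the Krt8-high clusters, Hist1h1c in naive microglia-like cells at 404 CPM, and Hist1h2bc in the choroid plexus-like clusters at 431 and 619 CPM.

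Hist1h1c, the most abundant linker gene, was highest in naive microglia-like cells. It stood at 437 and 377 CPM in Cx3cr1+/- and 379 and 386 CPM in Cx3cr1-/- brains, 395 ± 28.5 CPM (SD, n = 4 brains). In microglia-like cells of the metastasis table it stood at 75.9 and 154.3 CPM in Cx3cr1+/- and 94.8 and 121.4 CPM in Cx3cr1-/- brains. Every naive brain was thus above every brain of the metastasis table, but the tables were corrected separately, so this difference was not tested. The 85 barcodes that lay in the microglia-like cluster of both tables, left out elsewhere, give a view of that correction: Hist1h1c stood at 302.8 CPM by the values of the metastasis table and at 326.9 CPM by those of the naive table in the same cells. Hist1h2bc stood at 159.7 and 173.7 CPM there. By either set of values Hist1h1c in these left-out cells was above every brain of the metastasis table as used. With all deposited cells, the mean histone sum of microglia-like cells of the metastasis table was 452.9 CPM, against 373.1 CPM as used. The part of the left-out cells in the difference between the tables was not tested.

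Hist1h2bc was highest in the choroid plexus-like clusters. In the metastasis table it stood at 386.9 and 503.9 CPM in Cx3cr1+/- and 341.6 and 408.4 CPM in Cx3cr1-/- brains, over 37 cells in all. In the naive table the values were 1262 CPM, from 1 cell, and 645.4 CPM in Cx3cr1+/- brains and 637.4 and 484.5 CPM in Cx3cr1-/- brains. In each of these 8 brains Hist1h2bc was above its level in the vascular-like cells of the metastasis table, at 111.2 to 121.7 CPM. These choroid plexus-like cells also carried Krt8-high markers, summed to 440 to 1262 CPM per brain against 1231 to 1333 CPM in the Krt8-high cells of the metastasis table, and their part in the result was not tested.

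Hist1h2ap was highest in Krt8-high cells. The metastasis table gave 512.5 and 688.4 CPM in Cx3cr1+/- and 523.9 and 509.5 CPM in Cx3cr1-/- brains, and the naive table gave 803.7 and 548.2 against 531.3 and 662.2 CPM. In microglia-like cells it stood at 11.9 to 46.0 CPM in the metastasis table, against 14.4 to 24.0 CPM among naive brains. The Krt8-high and microglia-like values did not overlap.

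The share of cells with Mki67 above 0 did not order the clusters by their histone sum. Among the named clusters Krt8-high cells had the largest share in each table, 39.9% of cells in the metastasis table (exact 95% binomial interval 38.1 to 41.8%) and 33.8% in the naive table (25.9 to 42.4%), while 3 cells were positive in the unnamed cluster of 7. Such intervals cover counting error only. Over 10 clusters of the metastasis table, Pearson's r between the share and the histone sum was 0.713 but Spearman's rho was −0.176, and without Krt8-high cells r was −0.406 over 9 clusters. With the share of cells positive for Top2a, a G2 and M phase gene, in place of Mki67, rho was 0.164. In the naive table r was 0.524 and rho was 0.0729 over 10 clusters. The clusters of a table share brains, library and depth correction, so these correlations are descriptions. Naive microglia-like cells, with Mki67 in 1.46% of cells (0.867 to 2.3%), had a histone sum of 830 ± 68.7 CPM, while T-like cells of the metastasis table, with Mki67 in 10.3% (8.66 to 12.2%), had 335 ± 58.3 CPM (SD, n = 4 brains).

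Single members followed Mki67 across clusters in opposite ways. Hist1h2ap had r = 0.963 and rho = 0.527 in the metastasis table while the naive clusters gave r = 0.917 and rho = 0.857, over 10 clusters each. Hist1h1b had r = 0.966 and rho = 0.37, and r = 0.94 and rho = 0.878. Hist1h1c had r = −0.44 and rho = −0.77, and r = −0.582 and rho = −0.626. For Hist1h2bc r was −0.166 and rho −0.43 in the metastasis table, and r was −0.375 and rho −0.778 in the naive table. In the metastasis table the high r of Hist1h2ap and Hist1h1b rested on Krt8-high cells, without which it was 0.245 and 0.292 over 9 clusters.

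**Figure D2:**
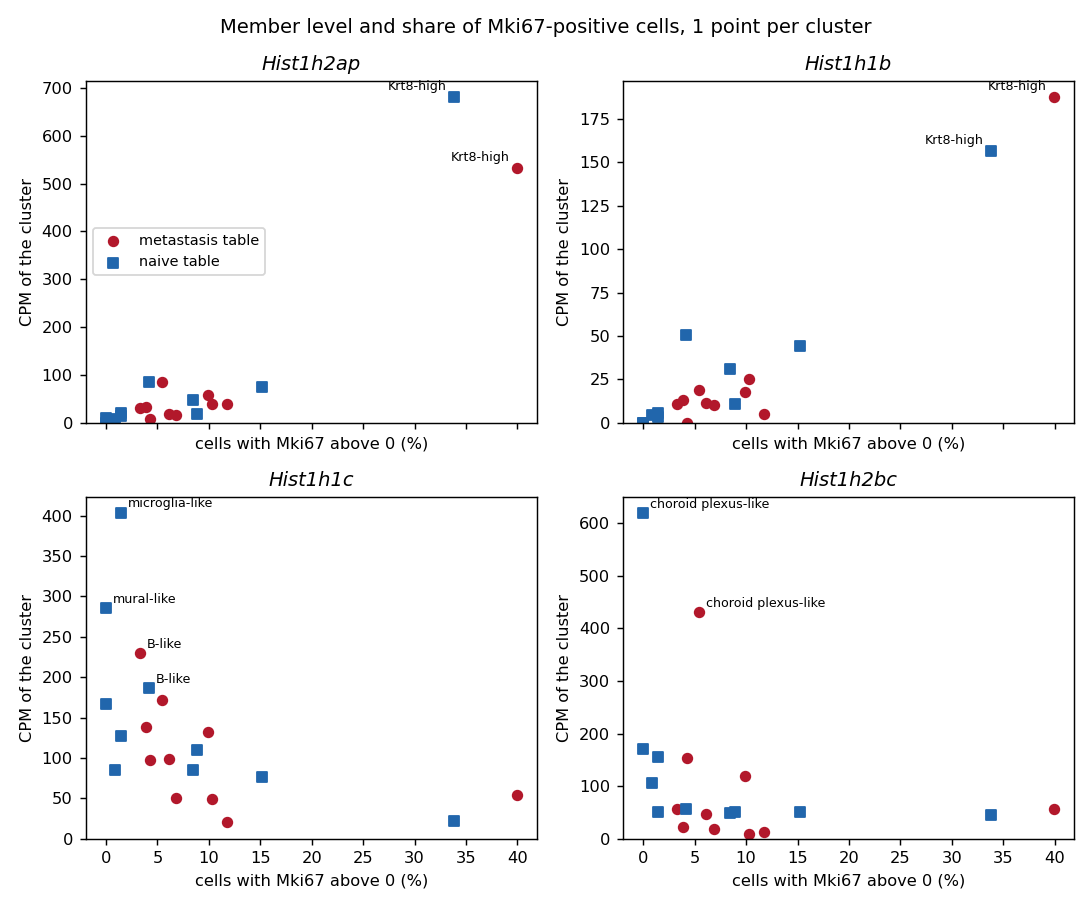
Level in CPM of Hist1h2ap, Hist1h1b, Hist1h1c and Hist1h2bc against the percent of cells with Mki67 above 0, with a point for each cluster of the metastasis and naive tables. The Krt8-high clusters lie far to the right and are high for Hist1h2ap and Hist1h1b, while the highest points of Hist1h1c and Hist1h2bc lie at Mki67 shares under 10%.

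Within Krt8-high cells, cells with Mki67 above 0 were compared with cells at 0 in the same brain. Corrected UMIs were summed per brain and side and tested on log2(CPM + 10) with limma, brain as a block, so each difference below is on that scale and understates changes of low genes. Of 21 members with a mean above 10 CPM, 19 were higher in the Mki67-positive cells, beside 22.4% of all 8020 genes tested. The member that fell was Hist1h2bc, beside 14.0% of all genes lower. The median difference was 1.30 over the members tested and 0.0352 over all genes. Of the 21, 10 reached 10 CPM only through the Mki67-positive side and so had to differ. They were Hist1h1a, Hist1h2ab, Hist1h2ak, Hist2h2aa1, Hist1h2be, Hist1h2bm, Hist2h2bb, Hist1h3e, Hist1h3f and Hist1h4h, and their rises below are descriptions. The count and median are therefore a description and give no support, and they say nothing of the members not tested.

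Hist1h1e and Hist1h1b, which encode linker histones, had the largest rises among the members tested. Hist1h1e stood at 204.7, 263.1, 214.6 and 216.8 CPM in Mki67-positive cells of Cx3cr1+/- brains 1 and 2 and Cx3cr1-/- brains 1 and 2, in that order. In the cells at 0 it stood at 49, 70.5, 41.7 and 38.1 CPM. All 4 positive values were above all others, with a difference of 2.00 ± 0.08 (SE; limma, Benjamini-Hochberg adjusted p = 1.316e-07). Hist1h1b rose by 1.93 ± 0.09 (adjusted p = 2.722e-07), from a mean of 93.4 to 370.4 CPM. Hist1h1d rose by 1.76 ± 0.09 and Hist1h1a by 1.28 ± 0.10. Hist1h1c rose by 0.59 ± 0.12 (adjusted p = 4.552e-03), and its sides overlapped: their means were 74.4 ± 6.49 and 48.1 ± 20.1 CPM (SD, n = 4 brains). It was not called without the filter on low values (adjusted p = 0.0702), without the block for the brain (0.0524) or with Top2a in place of Mki67 (0.181).

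The H2A genes rose as well, apart from Hist3h2a. Hist1h2ap stood at 840, 885.8, 888.4 and 877.6 CPM in Mki67-positive cells of the same brains in the same order, and at 285.8, 479.7, 301.6 and 242.6 CPM in the cells at 0. The sides did not overlap, with a difference of 1.43 ± 0.11 (SE; adjusted p = 8.188e-06). The other Hist1 and Hist2 members of this family that were tested rose by 1.04 (Hist1h2ak) to 1.79 (Hist2h2ac). Hist3h2a, the leading Hist3 member, differed by 0.16 ± 0.10 and was not called (adjusted p = 0.24).

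Of the H2B genes tested, Hist1h2bc alone had means above 10 CPM on both sides. Hist1h2bc stood at 48.0, 29.8, 41.2 and 42.9 CPM in Mki67-positive cells and at 69.4, 63.7, 62.4 and 77.2 CPM in the cells at 0. It was lower in the positive cells of all 4 brains with no overlap and fell by 0.64 ± 0.08 (SE; limma, adjusted p = 2.607e-04). Hist2h2bb rose by 1.20 ± 0.09, Hist1h2bm by 0.91 ± 0.10 and Hist1h2be by 0.49 ± 0.11. These reached 10 CPM only through the Mki67-positive side, so their rises are descriptions.

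Of the H3 and H4 genes tested, Hist1h3c and Hist1h4d had means above 10 CPM on both sides. Hist1h3c rose by 1.47 ± 0.11 (SE). Hist1h4d rose by 1.77 ± 0.08 (limma, adjusted p = 2.618e-07), from a mean of 18.6 to 86.6 CPM. Hist1h3e (1.25 ± 0.08), Hist1h3f (0.99 ± 0.09) and Hist1h4h (1.30 ± 0.09) reached 10 CPM only through the Mki67-positive side, so their rises are descriptions. Mki67-positive cells had a median of 115466 raw UMIs against 96484 in the cells at 0. Within the interquartile range of raw UMIs, an alternative chosen after seeing the data, 17 of 19 members tested were higher and 1 was lower. Like the main count, this is a description and gives no support.

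**Figure D3:**
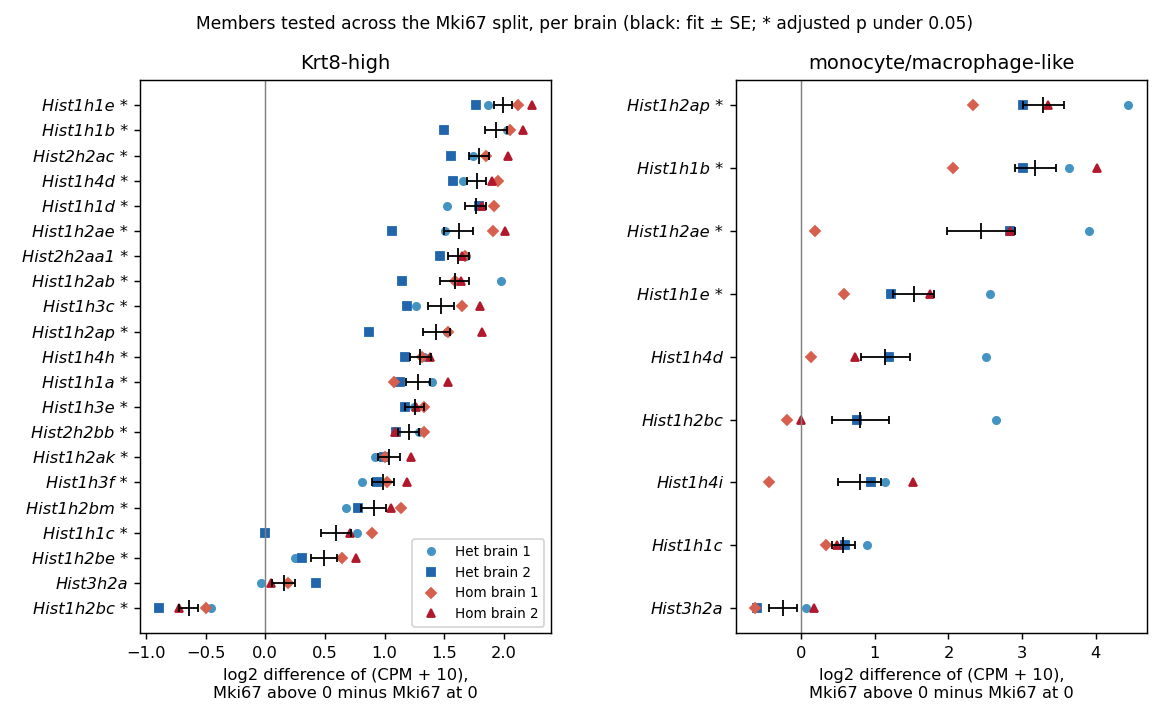
Log2 difference, on log2(CPM + 10), between cells with Mki67 above 0 and cells at 0, for each member tested in Krt8-high and in monocyte/macrophage-like cells of the metastasis table. Each point is 1 of 4 brains. Hist1h2bc lies below 0 in all 4 brains of the Krt8-high cells, in which most other members lie above 0.

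Lists of other genes that handle histones were counted in the same comparison. Of the histone variants encoded outside the clusters, 6 of 9 tested rose and 2 fell, with a median of 0.37. The centromeric H3 variant Cenpa rose by 1.32 ± 0.08 (SE; adjusted p = 1.401e-06), the linker H1f0 by 0.88 ± 0.06, the DNA-damage variant H2afx by 0.85 ± 0.06 and the H3.3 gene H3f3b by 0.33 ± 0.03. Of the histone mRNA processing genes, 5 of 13 rose and none fell, with a median of 0.161. They included Srrt (0.75 ± 0.06), Eri1 (0.39 ± 0.05), Fip1l1 (0.25 ± 0.05) and Cpsf2 (0.33 ± 0.07), whereas Slbp, which binds the histone stem-loop, differed by 0.06 ± 0.07 and was not called (adjusted p = 0.49).

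Of the histone chaperones, which carry histones to DNA, 9 of 18 rose and none fell, with a median of 0.175. The 4 with the smallest p were Hjurp, the Cenpa chaperone (1.05 ± 0.07), Anp32e (0.68 ± 0.05), Supt16 (0.50 ± 0.04) and Atrx (0.43 ± 0.04). Of 40 genes of the S phase list 19 rose and 3 fell, with Rrm1 at 0.96 ± 0.07, Blm at 0.89 ± 0.08, Atad2 at 0.78 ± 0.07 and Ung lower at −1.37 ± 0.09. All 48 genes tested of the G2 and M phase list rose, with a median of 1.44, and those with the smallest p were Cenpe (2.37 ± 0.07), Hmmr (1.99 ± 0.07), Tpx2 (1.87 ± 0.07) and Kif11 (2.10 ± 0.08).

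Monocyte/macrophage-like cells were compared in the same way with fewer cells, 122 with Mki67 above 0 and 1664 at 0. Of 9 members tested, 4 were higher in the Mki67-positive cells, beside 1.9% of all 7375 genes tested, and 0 were lower, beside 0.217%. Of the 9, 4 reached 10 CPM only through the positive side, namely Hist1h2ap, Hist1h1b, Hist1h2ae and Hist1h4d. They include 3 of the 4 called, so this count gives no support. The differences and p-values of these members are likewise descriptions. Hist1h2ap stood at 338.6, 121.5, 72.7 and 154.1 CPM in Mki67-positive cells of Cx3cr1+/- brains 1 and 2 and Cx3cr1-/- brains 1 and 2, against 6.06, 6.23, 6.33 and 5.98 CPM in the cells at 0. The sides were far apart and the positive values spread widely, with a difference of 3.29 ± 0.28 (SE; limma, adjusted p = 6.145e-04). Hist1h1b stood at 136.5, 91.8, 45.1 and 203 CPM against 1.73, 2.65, 3.26 and 3.1 CPM, a difference of 3.18 ± 0.28 (adjusted p = 6.145e-04).

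Hist1h1e rose by 1.53 ± 0.28 (adjusted p = 0.0206) and Hist1h2ae by 2.44 ± 0.46 (adjusted p = 0.0246). The other 5 members were not called: Hist1h1c at 0.57 ± 0.15, Hist1h4d at 1.14 ± 0.33, Hist1h4i at 0.79 ± 0.29, Hist1h2bc at 0.80 ± 0.39 and Hist3h2a at −0.25 ± 0.20. Hist1h2bc was higher in the positive cells of 2 brains and lower in the others. No member was called without the filter on low values, 2 were called without a trend in the variance, and 2 were called without Cx3cr1-/- brain 2, while Hist1h2ae was also not called without Cx3cr1+/- brain 2 (adjusted p = 0.0792). Krt8-high markers summed to 98.3, 14.9, 128 and 7.52 CPM in the positive cells of the 4 brains, against 40.7, 24.6, 31.1 and 24.6 CPM in the cells at 0, and median raw UMIs were 19189 against 11828. Their part in the result was not tested.

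Among the other lists, 4 of 10 variants, 0 of 10 processing genes and 2 of 15 chaperones rose in monocyte/macrophage-like cells. So did 18 of 26 S phase genes and 29 of 39 G2 and M phase genes, and none fell on any list. Over all cells of the cluster only 14 S phase and 18 G2 and M phase genes passed the filter. The counts thus include genes that passed through the Mki67-positive side and had to differ. The counts and the sizes below are therefore descriptions and give no support. H2afx rose by 2.25 ± 0.34 (SE), Cenpa by 1.61 ± 0.30 and H2afz by 0.81 ± 0.16. The chaperones called were Asf1b (1.75 ± 0.31) and Nasp (0.99 ± 0.20).

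In the other clusters at least 1 brain had fewer than 10 Mki67-positive cells, so the sides are given pooled over brains and without a test. In T-like cells the histone sum was 1451 CPM over 124 positive cells and 180.6 CPM over 1077 cells at 0, with Hist1h2ap at 277.1 and 10.6 CPM and Hist1h1b at 212.2 and 2.81 CPM. The sum was 1076 against 249 CPM in microglia-like cells (40 and 614 cells) and 1352 against 391.9 CPM in NK-like cells (29 and 718 cells). In naive microglia-like cells it was 1618 against 836.4 CPM (18 and 1216 cells), and in naive T/NK-like cells it was 1878 against 345.6 CPM (21 and 227 cells). The sum was higher on the Mki67-positive side in all of these.

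Hist1h1c lay closer between the sides than Hist1h2ap or Hist1h1b in these pooled values. It stood at 63.0 against 47.5 CPM in T-like cells, 131.1 against 95.9 CPM in microglia-like cells and 91.8 against 140.1 CPM in NK-like cells. In naive microglia-like cells it stood at 548.2 against 401.4 CPM, and in naive T/NK-like cells at 59.1 against 88.4 CPM. The direction thus differed between clusters. Of the 1234 naive microglia-like cells 1216 had Mki67 at 0, and they held 3701 of the cluster's 3782 Hist1h1c UMIs.

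To place the members within the cycle, Krt8-high cells were divided at the median of the S share, the UMIs of the S phase list over those of the S and the G2 and M lists together. Of 21 members tested, 16 were lower in the 1299 S-leaning than in the 1299 G2M-leaning cells and 0 were higher, beside 9.78% of all 8010 genes lower and 13.1% higher. The median difference was −0.49 over the members. Of the 16, 4 passed the filter only through the G2M-leaning side, among them Hist2h2bb. Hist1h4d differed by −0.98 ± 0.09 (SE; limma, adjusted p = 2.974e-06), Hist2h2bb by −0.71 ± 0.10, Hist1h1e by −0.67 ± 0.05 and Hist1h2ap by −0.25 ± 0.08. The sides were not alike in Mki67, which was above 0 in 22.3% of S-leaning and 61.7% of G2M-leaning cells. Without the block for the brain 7 members were lower, and within the interquartile range of raw UMIs, chosen after seeing the data, 9 were lower. Hist1h2ap was also not called without Cx3cr1+/- brain 1 or without either Cx3cr1-/- brain (adjusted p = 0.0944, 0.161 and 0.13).

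Among Mki67-positive cells only, a comparison added after seeing that imbalance, the sign differed from that over all cells for 16 of the 21 members tested in both. Of these, 6 were called in opposite directions, namely Hist1h1d, Hist1h1e, Hist1h2ae, Hist1h2ap, Hist2h2aa1 and Hist2h2ac. With 545 S-leaning and 546 G2M-leaning cells, 10 of 24 members tested were higher in S-leaning cells, beside 6.22% of all 8038 genes, and 1 was lower, beside 4.74%. The median difference was 0.356. Hist1h2ap stood at 972.5, 1144, 1145 and 1149 CPM in S-leaning cells of Cx3cr1+/- brains 1 and 2 and Cx3cr1-/- brains 1 and 2, against 605.8, 591.7, 654.9 and 612.4 CPM in G2M-leaning cells. The sides did not overlap, with a difference of 0.83 ± 0.05 (SE; limma, adjusted p = 5.567e-07).

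The linker genes of the Hist1 cluster rose together in this comparison, with different sizes. Hist1h1b stood at 393.2, 578, 477.9 and 515.7 CPM against 291.3, 289.8, 201.2 and 185.8 CPM, again without overlap, a difference of 1.01 ± 0.12 (adjusted p = 1.305e-04). Hist1h1a rose by 1.32 ± 0.21 (adjusted p = 1.406e-03), Hist1h1d by 0.66 ± 0.11, Hist1h1e by 0.59 ± 0.10 and Hist1h1c by 0.51 ± 0.12. The other members called higher were Hist2h2aa1 (0.77 ± 0.13), Hist1h3b (0.63 ± 0.15), Hist1h2ae (0.59 ± 0.10) and Hist2h2ac (0.47 ± 0.12). Hist1h3b passed the filter only through the S-leaning side, so its call is a description. Hist1h2bc fell by 0.55 ± 0.16 (adjusted p = 0.0466).

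Neither H4 gene tested was called here. Hist1h4d differed by −0.02 ± 0.11 (SE; adjusted p = 0.918), with means of 86.9 ± 16.0 and 87.9 ± 9.91 CPM (SD, n = 4 brains), and Hist1h4h by 0.06 ± 0.16. Of the genes that handle histones, Hat1, which acetylates new H4, rose by 0.89 ± 0.08 and the H1 and H3-H4 chaperone Nasp by 0.55 ± 0.07. Slbp (1.35 ± 0.11) and Chaf1b (2.10 ± 0.16) were among the genes that defined the S share, and Cenpa (−1.36 ± 0.10) was among those of the G2 and M list, so their differences are descriptions. In monocyte/macrophage-like cells 0 of 8 members tested were called between S-leaning and G2M-leaning cells with limma, beside 7.91% of all 7090 genes. An unadjusted p under 0.05 was found for 2 of the 8 members and for 1753 of all genes tested. The smallest p values were those of Hist1h2ae (−0.52 ± 0.19), Hist1h1b (−0.45 ± 0.18) and Hist1h2ap (−0.20 ± 0.12).

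**Figure D4:**
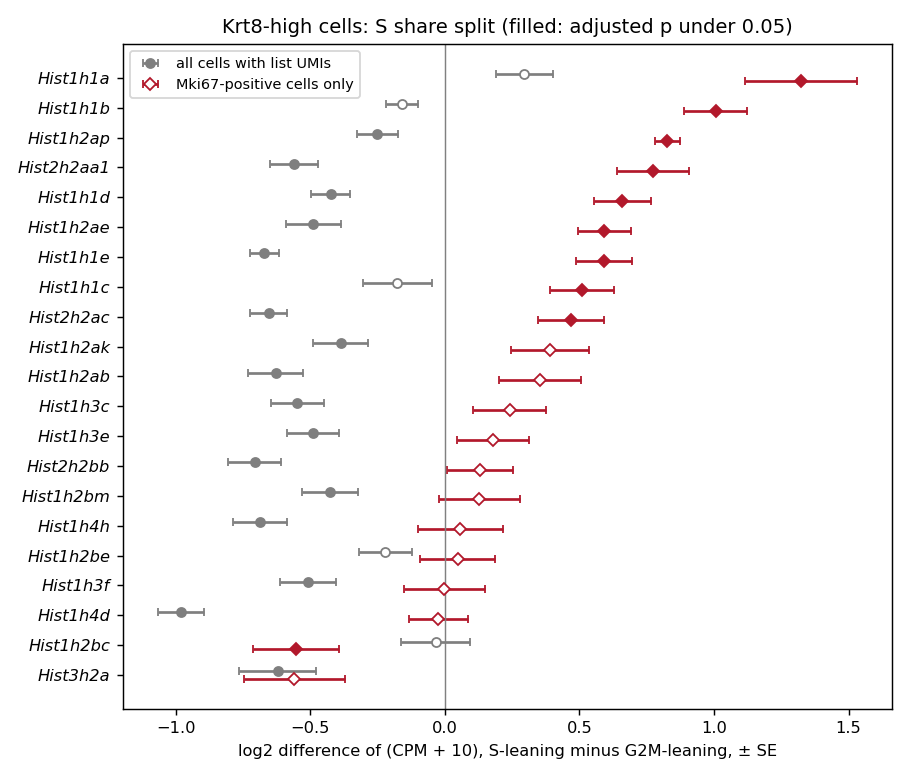
Log2 difference, on log2(CPM + 10), between S-leaning and G2M-leaning Krt8-high cells of the metastasis table, over all cells and over Mki67-positive cells only. Members tested in both are shown. Each point is the fitted difference over the 4 brains with its SE, filled where the limma adjusted p was under 0.05. Hist1h2ap and Hist1h1b lie above 0 among Mki67-positive cells, at 0.83 and 1.01, and Hist1h4d lies around 0 there.

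Genotype was compared within each cluster that had at least 20 cells in every brain, 2 Cx3cr1-/- against 2 Cx3cr1+/- brains. No member was called in any of 8 clusters by limma with Benjamini-Hochberg adjustment, and few genes were called at all. The share of all genes called was 0.025% in Krt8-high, 0.0143% in monocyte/macrophage-like, 0.0% in T-like, 0.0814% in microglia-like, 0.0476% in NK-like and 0.0% in vascular-like cells of the metastasis table. It was 0.572% in microglia-like and 0.215% in T/NK-like cells of the naive table. Members with an unadjusted limma p under 0.05 are given beside the count over all genes tested. They numbered 2 of 21 in Krt8-high (486 of 8011 genes), 0 of 8 in monocyte/macrophage-like (535 of 6980) and 0 of 7 in T-like cells (297 of 6524). There were 4 of 9 in microglia-like (635 of 7374), 5 of 9 in NK-like (254 of 6299) and 5 of 9 in vascular-like cells (918 of 8896). The naive table had 2 of 9 in microglia-like (655 of 7693) and 3 of 12 in T/NK-like cells (408 of 7453).

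The largest difference of a member was in vascular-like cells. Hist1h2ap stood at 36.9 and 8.15 CPM in Cx3cr1+/- and 115.8 and 109.7 CPM in Cx3cr1-/- brains, a difference of 2.07 ± 0.43 (SE; limma, adjusted p = 0.236). Hist1h1b stood at 9.88 and 1.63 against 40.3 and 32.8 CPM, a difference of 1.61 ± 0.30 (adjusted p = 0.211). Hist1h4i, an H4 gene, stood at 9.45 and 9.78 against 26.0 and 21.4 CPM, a difference of 0.78 ± 0.20 (adjusted p = 0.316). Hist1h1c ran the other way, at 137 and 175.3 against 94.8 and 99.8 CPM, a difference of −0.62 ± 0.17 (adjusted p = 0.326). In 5 of the 9 members tested both Cx3cr1-/- brains were above both Cx3cr1+/- brains, beside 23.4% of all genes, and 3 of these 5 passed the filter only through the Cx3cr1-/- brains. Mki67 was above 0 in 6.6% and 2.91% of vascular-like cells of Cx3cr1+/- brains and in 19.6% and 17.5% of those of Cx3cr1-/- brains. Among vascular-like cells with Mki67 at 0, Hist1h2ap stood at 24.1 and 8.44 CPM in Cx3cr1+/- and at 1.07 and 3.54 CPM, from 1 and 2 UMIs, in Cx3cr1-/- brains, so the order was the opposite there. Krt8-high markers summed to 100 and 76.6 CPM in all vascular-like cells of Cx3cr1+/- brains and to 106 and 178 CPM in those of Cx3cr1-/- brains. In the Mki67-positive ones they summed to 311 and 96.2 against 123 and 389 CPM over 13, 3, 19 and 10 cells. The part of these markers in the result was not tested.

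In microglia-like cells of the metastasis table Hist1h2ae stood at 5.94 and 7.04 CPM in Cx3cr1+/- and 28.2 and 24.3 CPM in Cx3cr1-/- brains, a difference of 1.13 ± 0.23 (SE; limma, adjusted p = 0.203). The genotypes did not overlap, which held for 4 of the 9 members tested, beside 2993 of all 7374 genes in either direction. Hist1h2ae and Hist1h4i passed the filter only through the Cx3cr1-/- brains. Mki67 was above 0 in 3.08% and 7.64% of cells against 15.3% and 11.4%, and among cells with Mki67 at 0 Hist1h2ae stood at 3.42 and 5.11 against 4.48 and 5.54 CPM, which overlapped. Hist1h4i stood at 6.16 and 8.22 against 17.8 and 24.3 CPM, a difference of 0.85 ± 0.24 (limma, adjusted p = 0.407). In the cells with Mki67 at 0 it stood at 5.92 and 8.31 against 12.3 and 16.6 CPM, again without overlap. These values rest on 26, 13, 11 and 6 UMIs. Hist1h2ap stood at 11.9 and 16.4 against 46.0 and 24.3 CPM, a difference of 0.87 ± 0.28 (adjusted p = 0.477). Hist1h2bc stood at 31.7 and 57.5 against 82.6 and 65.5 CPM, a difference of 0.66 ± 0.26 (adjusted p = 0.548).

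In NK-like cells 8 of 9 members had a negative difference and none was called. In 6 of the 9 both Cx3cr1-/- brains were below both others, beside 19.6% of all genes, and 3 of these 6 passed the filter only through the Cx3cr1+/- brains. Hist3h2a had the positive difference, 0.22, at 12.1 and 16.9 against 21.1 and 16.0 CPM. Hist1h2ap stood at 74.9 and 35.8 CPM against 26.2 and 16.0 CPM, a difference of −1.02 ± 0.33 (SE; limma, adjusted p = 0.927). Hist1h2ae (−1.17 ± 0.39), Hist1h4i (−0.87 ± 0.37) and Hist1h2bc (−0.64 ± 0.28) had the same adjusted p. Mki67 was above 0 in 8.11% and 3.49% of cells against 4.71% and 2.54%. Among cells with Mki67 at 0, Hist1h2ap stood at 23.9 and 22.8 against 19.8 and 14.9 CPM and Hist1h2ae at 13.3 and 9.46 against 6.92 and 6.26 CPM, without overlap. These values rest on 9, 99, 40 and 19 UMIs for Hist1h2ap and on 5, 41, 14 and 8 UMIs for Hist1h2ae. The Cx3cr1+/- brain 1 held 37 NK-like cells, 34 of them with Mki67 at 0.

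In T/NK-like cells of the naive table Hist1h2ap stood at 30.1 and 9.18 CPM in Cx3cr1+/- and 61.4 and 87.2 CPM in Cx3cr1-/- brains, a difference of 1.59 ± 0.37 (SE; limma, adjusted p = 0.136). Both Cx3cr1-/- brains were above both others in 3 of 12 members, beside 23.2% of all genes, and 2 of these 3 passed the filter only through the Cx3cr1-/- brains. They were Hist1h2ap, Hist1h1b (12.1 and 2.3 against 27.6 and 71.2 CPM, 1.75 ± 0.44, adjusted p = 0.21) and Hist1h2ae (12.1 and 4.59 against 30.7 and 58.7 CPM, 1.56 ± 0.40, adjusted p = 0.226). Mki67 was above 0 in 10.1% and 1.67% of these cells against 4.55% and 14.7%, which overlapped. Among cells with Mki67 at 0 Hist1h2ap stood at 27.0 and 7.03 against 22.7 and 10.6 CPM, which overlapped too. Over all T/NK-like cells of the naive table, 8 of 34 genes of the G2 and M list were called higher in Cx3cr1-/- brains. The list median was 1.04. In naive microglia-like cells Hist1h2bc stood at 183.6 and 151.1 against 136.1 and 126 CPM, a difference of −0.33 ± 0.10 (adjusted p = 0.227), and Hist1h1c at 437 and 377 against 379 and 386 CPM, which overlapped. Hist1h1d stood at 29.7 and 33.5 against 18.7 and 20.7 CPM there, a difference of −0.48 ± 0.16 (adjusted p = 0.248), and Hist1h2ae differed by −0.18 ± 0.17 (adjusted p = 0.861).

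In Krt8-high cells Hist1h1b stood at 193 and 301 CPM against 171.4 and 187.4 CPM, a difference of −0.41 ± 0.19 (SE; limma, adjusted p = 0.787), and the Cx3cr1+/- brain 2 was the highest for it, for Hist1h2ap and for the histone sum. Hist1h4h stood at 17.6 and 20.04 against 12.2 and 13.4 CPM, a difference of −0.34 ± 0.13, and Hist2h2bb at 12.4 and 20.04 against 9.77 and 10.6 CPM, −0.36 ± 0.16, both with the same adjusted p. That brain also had the largest share of Mki67-positive Krt8-high cells, 51.2% against 37.6 to 41.8% in the other 3. The smallest p values of T-like cells were those of Hist1h1e (−0.32 ± 0.17), Hist1h2ap (−0.31 ± 0.22) and Hist3h2a (0.27 ± 0.22), each at an adjusted p of 0.972. Those of monocyte/macrophage-like cells were of Hist1h2ap (−0.50 ± 0.22, adjusted p = 0.686), Hist1h1e (0.22 ± 0.12) and Hist1h1c (0.21 ± 0.12), at 0.78.

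Leaving out 1 brain changed some results, and the sizes for members whose result changed are given here without the others. Without Cx3cr1+/- brain 1 the differences in Krt8-high cells were −0.397 for Hist1h4h, −0.574 for Hist2h2bb and −0.717 for Hist1h1b. In naive T/NK-like cells they were 2.12 for Hist1h2ap, 2.17 for Hist1h1b and 1.86 for Hist1h2ae. Without Cx3cr1+/- brain 2 those of NK-like cells were −1.47 for Hist1h2ap, −1.77 for Hist1h2ae and −1.39 for Hist1h4i. Hist1h2ap then differed by −0.842 in monocyte/macrophage-like cells. Each of these fits rests on a lone brain for 1 genotype, which is assumed to vary like the other genotype's brains.

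**Figure D5:**
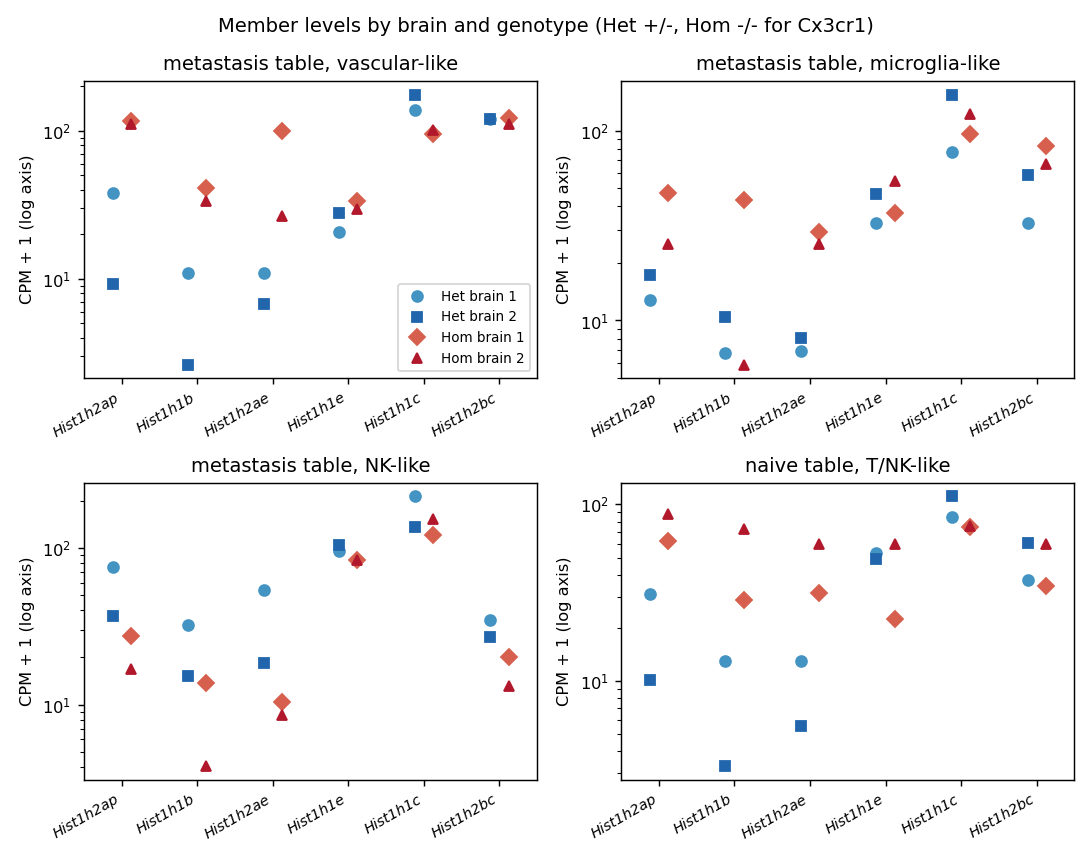
Level in CPM, per brain, of 6 members in vascular-like, microglia-like and NK-like cells of the metastasis table and in T/NK-like cells of the naive table, by Cx3cr1 genotype. Each point is 1 brain, 2 per genotype. Hist1h2ap lies higher in Cx3cr1-/- brains in vascular-like, microglia-like and naive T/NK-like cells and lower in NK-like cells, and no member was called.

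Whether the genotype difference of microglia-like cells differed between the metastasis and naive tables was tested as an interaction over the 8 brains. No member of 8 tested was called by limma, beside 0.0142% of all 7065 genes. Hist1h2ae had the smallest p, with an interaction of 1.32 ± 0.27 (SE; adjusted p = 0.295). It stood higher in Cx3cr1-/- brains in the metastasis table and at 12.7 and 17.3 against 10.7 and 13.2 CPM in the naive table. Hist1h2bc followed at 0.98 ± 0.29 (adjusted p = 0.469) and Hist1h2ap at 0.85 ± 0.35 (adjusted p = 0.572). Hist1h1c gave 0.06 ± 0.32 (adjusted p = 0.972). Of the 8 members, 4 had an unadjusted p under 0.05, beside 596 of all 7065 genes. Without Cx3cr1-/- brain 2 of the metastasis table the interaction was 1.39 for Hist1h2ae, 1.13 for Hist1h2bc and 1.2 for Hist1h2ap. Without brain 1 it was 1.24 for Hist1h2ae. These fits rest on a lone Cx3cr1-/- brain in that table.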

How the data were processed

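Per the submitters' processing notes, reads were handled with Cell Ranger 3.1 and Seurat 3.1.1 on mm10, and the step that made each table is not given in the sources used here. The authors deposited natural log values, ln(1 + count), and exp(value) − 1 gave whole corrected counts for all nonzero values (tolerance 1e-06). Each table was corrected for depth on its own, so a corrected count is not a raw count and levels are set between tables without a test. Median UMIs per cell went from 103002 raw to 12491 corrected in Krt8-high cells of the metastasis table. In its T-like cells they went from 5409 to 11616. Clusters, hashtag labels, raw UMI counts and singlet labels are the authors' deposited columns, and no doublet caller was run.

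Corrected counts were summed per brain and cluster or side and scaled to CPM. Genes with a mean above 10 CPM were tested as log2(CPM + 10) with limma 3.58.1 (R 4.3.3; lmFit, eBayes with trend), Benjamini-Hochberg adjusted over all genes tested, threshold 0.05. The Mki67 and S share comparisons had the brain as a block, because both sums come from the same brain. Genotype needed 20 cells per brain, and the other comparisons 10 per brain and side, which also held for alternative cell sets. Cells entered the S share comparison with at least 10 UMIs on the S and G2M lists. Where counts were changed 2-fold on simulated data, limma called 96% of changed genes in the Krt8-high Mki67 comparison and 68% in the monocyte/macrophage-like one. It called 25% in the genotype comparison of microglia-like cells of the metastasis table. Of the genes called, 3.45%, 8.2% and 8.82% had not been changed, in that order. The simulation gave every gene the same small added spread between brains and changed only genes above 20 CPM. Some members spread more widely between the real brains, so the shares of changed genes called may be too high. The brains were pooled in 1 preparation, which all groups share, and p-values cover the spread between hashtagged brains.

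Genes named are the 8 members of highest mean CPM and, in each comparison, at most 10 members called with the smallest p, the extremes of a Mki67 split, or the 3 with the smallest p where none was called. From each other list the 4 with the smallest p in each Mki67 split are named, and Slbp, Hat1, Nasp, Chaf1b and Cenpa in the S share comparison were chosen after their values were seen, as were further members named with a value. The members and lists were chosen with earlier results of these data known. Antibody tag counts were not used.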

Additional observations from a re-analysis of the deposited data

Results flagged for a closer look

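In 4 comparisons within Krt8-high or monocyte/macrophage-like cells, 1 of 4 brains lay far from the other 3, which chance gives in about 1 in 20 groups. Every leading or called member was scanned in each Mki67 and S share comparison, so some such cases are expected by chance alone. The brain was Cx3cr1+/- brain 2 for Hist2h2aa1 in the Krt8-high Mki67 comparison, with a log2 difference of 1.46 against 1.65 to 1.68. It was Cx3cr1+/- brain 1 for the other three. Its log2 difference between S-leaning and G2M-leaning cells was −0.711 for Hist1h2ak in Krt8-high cells (others −0.314 to −0.245). It was 0.0706 for Hist1h1e among Mki67-positive Krt8-high cells (others 0.731 to 0.791), and −1.41 for Hist1h2ae in monocyte/macrophage-like cells (others −0.301 to −0.17).

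In the metastasis table the genotypes of some members did not overlap in a pair of clusters and lay in opposite directions. These differences between clusters were not tested, no member was called within a cluster, and the same brains enter each cluster. For Hist1h2ap the log2 genotype difference of vascular-like cells exceeded that of NK-like cells by 3.1 and that of monocyte/macrophage-like cells by 2.58. For microglia-like cells the excess was 1.89 over NK-like and 1.37 over monocyte/macrophage-like cells. For Hist1h2ae vascular-like cells exceeded NK-like cells by 2.98, and microglia-like cells did so by 2.3. For Hist1h1b vascular-like cells exceeded NK-like cells by 2.49 and Krt8-high cells by 2.02. For Hist1h2bc microglia-like cells exceeded NK-like cells by 1.3.

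The same held with smaller sizes for linker members. For Hist1h1c monocyte/macrophage-like cells exceeded vascular-like cells by 0.83. For Hist1h1e monocyte/macrophage-like cells exceeded T-like cells by 0.543 and NK-like cells by 0.455, and vascular-like cells exceeded them by 0.613 and 0.526.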

How the results depend on the processing

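Of 1388 values recomputed under alternatives, 403 of 424 for main results and 857 of 964 for single members kept their direction and side of the threshold, or stayed within the replicate spread or 1.5 times the count. The cause of the changes was not tested.

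For genotype, leaving out 1 brain gave 0 to 15 members lower and 0 to 1 higher in Krt8-high cells, 0 to 1 lower in monocyte/macrophage-like, 0 to 5 lower in NK-like, 0 to 1 higher in microglia-like and vascular-like, 0 to 3 higher in naive T/NK-like cells, and 0 to 3 higher in the interaction. With no filter on low values, 3 members were higher in naive T/NK-like cells. In T-like cells Hist1h1e turned to 0.0659 within the interquartile range of raw UMIs and Hist3h2a to −0.198 in cells of 5000 to 15000 raw UMIs.

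For the Mki67 comparison, no filter gave 32 members higher in Krt8-high cells (60 tested) and 0 in monocyte/macrophage-like cells, where no variance trend gave 2 and leaving out 1 brain 2 to 6. Without the replicate block for the brain, 18 and 3 members were higher, and 7 were lower in the Krt8-high S share comparison. In that comparison, no filter gave 10 lower, the interquartile range 9 lower, and leaving out 1 brain 0 to 1 higher and 11 to 16 lower. Among Mki67-positive cells 10 were higher and 1 lower, and the difference turned to 0.59 for Hist1h1e, 0.47 for Hist2h2ac, 0.13 for Hist2h2bb, 0.058 for Hist1h4h, 0.77 for Hist2h2aa1, 0.35 for Hist1h2ab, 0.66 for Hist1h1d, 0.24 for Hist1h3c, 0.18 for Hist1h3e, 0.593 for Hist1h2ae, 0.128 for Hist1h2bm, 0.39 for Hist1h2ak, 0.827 for Hist1h2ap, 0.51 for Hist1h1c and 1.01 for Hist1h1b. Hist1h2be also turned, to 0.048, and was called in neither. In the S share comparison over all Krt8-high cells, leaving out 1 brain moved Hist1h2bc between −0.253 and 0.0974. In monocyte/macrophage-like cells, Hist1h2ap turned to 0.00185 between the outer S shares. With Top2a in place of Mki67, Hist3h2a turned to −0.12 in Krt8-high cells (−0.157 within the interquartile range) and Hist1h2bc to −0.0105 in monocyte/macrophage-like cells, and the rank correlation over metastasis clusters was 0.164.

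Fewer than 10 cells in a brain kept several planned settings from being run: 5000 to 15000 raw UMIs in Krt8-high cells, in the monocyte/macrophage-like Mki67 comparison and in NK-like genotype, Mki67 of at least 2 UMIs in monocyte/macrophage-like cells, and the Mki67 comparison in all other clusters of both tables. The interquartile range and the Mki67-positive S share comparison, both chosen after seeing the data, could not be run in monocyte/macrophage-like Mki67 sides either. The few cells of each brain limit the precision of low members.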
